A study of Homo sapiens with 16 samples.

Results

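The inserts described here are 72 of 250 short inserts built on genomic initiation sites that the tables mark as random. They were selected on the start profile itself. Barcodes of an insert were summed as reads, each RNA library with at least 50 reads gave a profile, and the 4 short-library profiles were averaged. An insert was kept when its highest position lay within 5 bp of the middle of its named region, the annotated site, and held at least 30% of the average profile. Of the 250 random sites, 245 had 50 reads in each short RNA library. Of these, 72 were focused and faithful to the site, 65 were faithful but more dispersed, and 108 had their main start further away. The short tables held 499 inserts in all.

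The study used K562, a human erythroleukaemia cell line of wild-type genotype, and read promoter inserts by TSS-MPRA, a reporter assay that sequences capped RNA 5′ ends and assigns each start to a barcoded insert. Libraries of 4 kinds were read as RNA and as DNA, with 2 replicates in each of 8 groups: short inserts of 200 bases with 4 barcodes each, or long inserts of 350 bases with 2 barcodes each, in an episomal or a lentiviral vector. The labels call these EpiShort, LentiShort, EpiLong and LentiLong. They do not say whether replicates were separate cultures, so p-values here speak of the spread among these samples, which may be technical. Each replicate number rests on the order of names in a table. RNA libraries held 11140433 to 26720416 reads and DNA libraries 1698930 to 15286382, the lowest in EpiShort DNA replicate 2. Starts were present up to 36 bases after the site in the short tables and up to 111 bases after it in the long ones, so a start further downstream could not be seen in a short library.

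RNA polymerase II begins transcription at a core promoter, where general transcription factors place it over the start. The usual start is a purine that follows a pyrimidine, the minimal initiator. A TATA box, bound by the TATA-binding protein, lies a short distance upstream at some promoters and is known for fixing initiation to a narrow position, whereas promoters in CpG islands often initiate over many bases. An episomal reporter stays outside the chromosomes, while a lentiviral reporter integrates into them.

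Reference sequence around the main start is given for the 8 members with the highest share of starts on 1 base, for TRAF3IP2-AS1, which has a placed TATA box, and for a site in LINC00649, the member whose share differed most between the vectors. The bases just before and at the main start are in capitals, and so is the TATA box of TRAF3IP2-AS1. Windows run 5′ to 3′ on the insert's strand, from hg38, and end 10 bases after the start. They hold 51 bases, or 30 where a longer window would lie in an annotated untranslated region.
PTMA, chr2:231708490-231708540, plus strand: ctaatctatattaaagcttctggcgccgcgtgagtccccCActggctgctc
PIGU, chr20:34677082-34677132, minus strand: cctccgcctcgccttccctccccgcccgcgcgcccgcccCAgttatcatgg
ANKRD31, chr5:75236868-75236897, minus strand: gacccgcgggccgcctcgCAgactgctacc
Opposite LNC-LBCS, chr6:19804889-19804939, plus strand: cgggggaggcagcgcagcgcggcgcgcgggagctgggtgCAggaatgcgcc
ENSG00000286835, chr9:96417291-96417341, minus strand: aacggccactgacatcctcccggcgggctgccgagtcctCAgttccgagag
ATP6AP1, chrX:154428658-154428687, plus strand: ctgtcgaggccgctgaggCAgtggaggctg
LONP1 intron, chr19:5718839-5718889, plus strand: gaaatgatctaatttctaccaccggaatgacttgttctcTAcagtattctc
NR6A1, chr9:124771238-124771267, minus strand: gccgggcggctcggggccCAgagagagccg
TRAF3IP2-AS1, chr6:111483862-111483912, plus strand: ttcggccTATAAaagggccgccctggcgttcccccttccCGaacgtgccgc
LINC00649 intron, chr21:33948046-33948096, plus strand: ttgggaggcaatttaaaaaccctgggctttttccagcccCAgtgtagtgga

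The members lay on 20 chromosomes, and 34 of 72 (47.2%) had a GENCODE v44 transcript start on the same strand within 500 bp of the middle of the insert, against 101 of all 250 random sites (40.4%). The distance from the main start to the nearest of these was 0 bp at 10 members, at most 10 bp at 17, with a median of 9 bp and a maximum of 460 bp. These are PTMA, PIGU, ANKRD31, ENSG00000286835, ATP6AP1, NR6A1, DMXL1, PRADC1, ENSG00000272667, LIAS, ERICH1, ACAD8, ENSG00000287697, CERS2, LINC00853, ENSG00000270019, ZBTB8OS, POLR2H, ZSCAN29, GORASP1, SNRK, NRBP2, TRAF3IP2-AS1, CACYBP, KIAA0825, TUT1, LARP1, MIR223HG, PSMG4, SCRIB, ZNF646, ELF1, CDC26 and SOD2. Several serve general cell functions, among them POLR2H, a subunit of RNA polymerase II, CDC26, a subunit of the anaphase-promoting complex, PSMG4, a chaperone of proteasome assembly, and SOD2, the mitochondrial superoxide dismutase. Only the inserts at CACYBP and ENSG00000287697 were neighbours, 680 bp apart on opposite strands without overlap.

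A further 15 members (20.8%, against 21.2% of all random sites) started against a gene, with an annotated start within 500 bp on the other strand only. These lay opposite LNC-LBCS, ZHX1, PYGB, MRFAP1L1, MGRN1, CASP10, C17orf58, KLC2-AS2, KDM2A, PTPN18, AFF1, STK35, UTP25, DMD and C16orf95. The other 23 members (31.9%, against 38.4%) had no annotated start within that distance. Those on the opposite strand of a host gene lay in introns of LONP1, KCTD10, LINC01094, STXBP5-AS1, ADD3, OOSP3 and SYN3 and in an exon of DISP2. Those on the host's own strand lay in introns of FAM156A, ENSG00000254859, SYNJ2, LINC00649 and IGFL2-AS1, in an exon of WDR62 and in an untranslated region of MACF1. The remaining ones were intergenic, with main starts at chr2:10254868, chr10:123135370, chr20:53678273, chr11:124171085, chr6:35439439, chr10:5466631, chr12:124573893 and chr1:167715636. Below, a member without an annotated start is called by its host gene or its main start.

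The average share of starts on the main base, which selected the members and is given as a description, ran from 30.0% to 80.1% with a median of 42.0%, and 21 members held more than 50%. The main start was the annotated base itself at 63 members and lay 1 to 5 bp away at 9. PTMA, which encodes the abundant chromatin-associated protein prothymosin alpha, had the highest share: 79.1% and 78.1% in the EpiShort replicates and 81.5% and 81.6% in LentiShort. PIGU, a subunit of the transamidase that attaches GPI anchors, had 72.1% and 70.9% in EpiShort and 82.5% and 83.7% in LentiShort. At both genes all 4 libraries put most starts on 1 base, the lentiviral ones more so.

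ANKRD31, a gene known from meiotic recombination, followed with 63.7% and 68.4% in EpiShort and 80.2% and 80.8% in LentiShort. The start opposite LNC-LBCS, a long noncoding RNA gene, had 58.4% and 58.3% in EpiShort and 71.5% and 71.4% in LentiShort. ENSG00000286835 had 64.3% and 61.8% in EpiShort and 64.75% and 67.9% in LentiShort. The gap between the vectors was therefore wide at ANKRD31 and LNC-LBCS and narrow at ENSG00000286835. ATP6AP1, an accessory subunit of the vacuolar proton pump, had 56.8% and 58.9% in EpiShort and 69.3% and 70.6% in LentiShort. The site in an intron of LONP1, the gene of a mitochondrial protease, had 59.0% and 66.7% in EpiShort and 63.05% and 65.4% in LentiShort, so that its vectors overlapped. NR6A1, an orphan nuclear receptor, had 56.6% and 49.3% in EpiShort and 72.95% and 74.6% in LentiShort.

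At the edge of the rule the members just inside were SOD2 (30.00%), DISP2 (30.10%), IGFL2-AS1 (30.14%), CDC26 (30.14%) and the site in an intron of SYN3 (30.23%). Just outside were the sites opposite ZNF326 (29.73%), at chr16:70415488 (29.60%) and chr10:48463754 (29.34%), at SLC4A2 (28.74%) and opposite RESF1 (28.46%). No gap in the values marks the threshold. At 4 of the 5 members just inside, both replicates of a vector were under 30%: SOD2 (25.4% and 24.4%) and DISP2 (19.9% and 20.05%) in EpiShort, and CDC26 (26.1% and 28.25%) and IGFL2-AS1 (23.8% and 24.9%) in LentiShort. The SYN3 site was under it in 1 EpiShort replicate (27.7%).

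Outside the main base the members still held other starts. The second most used base carried a median of 11.5% of the average profile (range 4.64% to 33.2%), lay within 5 bp of the main start at 35 of 72 members and next to it at 8. It was upstream at 46 members, and 20 to 40 bases upstream at 16. A median of 12.5 positions per member held over 1% of starts each (range 4 to 20), against 17 among the dispersed faithful sites. The rule split these groups by the main base's share of the same average profile, so part of this contrast follows from the selection. Of 67 members whose 4 barcodes each had at least 50 reads in every short RNA library, 47 held 30% or more on the main base in each barcode. The range between the 4 barcodes had a median of 10.6 percentage points, from 1.17 to 30.4.

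The base pair at the main start was CA at 51 members (70.8%), TA at 14 (19.4%), CG at 2 and TG at 0, and a pyrimidine followed by a purine at 67 (93.1%). Over all 250 random sites, each read at its own main start, or at the annotated base where it had too few reads, CA made up 60.4% and a pyrimidine followed by a purine 87.6%. TCA with its A at the start was found at 17 members (23.6%, against 17.6%). The TATA box letters TATAA, searched on the insert's strand from 35 to 20 bases before the main start, were present at 3 members (4.2%, against 1.6% of all random sites). They began 33 bases upstream at TRAF3IP2-AS1 and opposite DMD, and 30 bases upstream at ELF1, an ETS-family transcription factor. None of the 8 members with the highest shares carried them.

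Upstream factor motifs were searched anywhere in the insert on both strands. CCAAT was found in 15 members (20.8%, against 23.2% of all random sites), the GC box GGGCGG in 33 (45.8%, against 43.6%), the ETS letters CCGGAA in 14 (19.4%, against 17.6%) and the CRE letters TGACG in 14 (19.4%, against 19.6%). The AP-1 letters TGACTCA were in 5 members (6.9%, against 7.2%), the GATA letters AGATAA in 3 (4.2%, against 9.2%), the NRF1 motif in 2 (2.8%, against 2.0%) and the YY1 motif in 0 (against 1.2%). Median GC content was 62% against 61%. These shares are descriptions of letters in a window and were not tested.

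Starts were more concentrated on the main base in the lentiviral vector at most members. The median share over members was 37.9% and 38.1% in the EpiShort replicates and 48.2% and 46.7% in LentiShort. Both lentiviral values lay above both episomal ones at 58 members, below them at 7, and overlapped at 7. The same count was not made over the other random sites. In limma on the log2 odds of the share, with Benjamini-Hochberg adjustment over 245 random sites, 51 of 72 members were higher in the lentiviral vector and 3 lower. Over all sites tested, 55.9% were called higher and 6.94% lower, and the median difference was 0.42 on the log2 odds scale, against 0.50 among members. Because the rule took the average of the vectors, a member low in one vector could pass only by a high share in the other. At 18 members the main base held under 30% of the episomal profile and at 3 under 30% of the lentiviral one, so the members' counts and sizes are a description. The same direction prevailed over all random sites, and whether the members differ from the others was not tested.

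Away from the main base, the profile fell most upstream. Starts over 5 bases upstream of the main base took a median of 22.3% of the episomal and 15.2% of the lentiviral profile, and were lower in the lentiviral vector at 55 members. Starts within 5 bases, the main base left out, took 16.5% and 14.5% and were lower at 58 members. Those over 5 bases downstream took 13.9% and 12.9% and were lower at 49. These zones and the main base make up the whole profile. The main base was higher in the lentiviral vector at 63 members, so the other zones had to fall on balance. The zones were counted for members alone.

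Members named next were chosen after their values were seen, and the first 5 passed the rule through their lentiviral share. The site in an intron of the noncoding gene LINC00649 had shares of 13.1% and 6.29% in EpiShort and 51.4% and 53.3% in LentiShort (log2 odds difference 3.43, SE 0.43, adjusted p = 0.00588). TRAF3IP2-AS1, the antisense transcript with the placed TATA box, went from 20.9% and 18.1% to 47.8% and 50.8% (2.00, SE 0.12, adjusted p = 0.00228). LARP1, an RNA-binding regulator of ribosomal protein mRNAs, went from 18.3% and 13.6% to 53.7% and 43.9%, on 153 to 513 reads per library. The other 2 members with a placed TATA box moved less: the site opposite DMD from 28.6% and 29.5% to 34.0% and 34.95%, and ELF1 from 29.3% and 28.5% to 31.2% and 32.8%. The 3 members called lower in the lentiviral vector were IGFL2-AS1 (37.1% and 34.7% against 23.8% and 24.9%), CDC26 (34.0% and 32.2% against 26.1% and 28.25%) and ENSG00000287697 (52.1% and 52.8% against 47.25% and 44.85%).

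The long libraries, which the rule did not use, showed the same direction, with less certainty. Of 68 members with 50 reads in each long RNA library, limma called the share on the same genomic base higher in LentiLong at 31 and lower at 7, against 40.9% and 12.7% of 237 sites. The median difference was 0.50 among members and 0.41 over all sites. Leaving out any 1 long RNA library, which leaves 1 sample in a group, lowered the number of calls among members and over all sites. The loss was largest without EpiLong replicate 1. The median differences then ran from 0.39 to 0.52 among members and from 0.35 to 0.45 over all sites. TRAF3IP2-AS1 repeated its difference, with 13.7% and 13.1% in EpiLong and 44.6% and 43.8% in LentiLong (log2 odds difference 2.36, SE 0.10, adjusted p = 0.00584). The LINC00649 site had 22.6% and 23.9% in EpiLong and 60.1% and 53.75% in LentiLong, again far apart (2.13, SE 0.17, adjusted p = 0.00706). IGFL2-AS1 and CDC26 again had their lower shares in the lentiviral vector, 17.8% and 18.5% against 28.0% and 27.7%, and 20.97% and 20.96% against 28.1% and 27.1%. ENSG00000287697 did not repeat its difference, with 2.56% and 2.76% in EpiLong and 2.59% and 2.35% in LentiLong (−0.11, adjusted p = 0.456). Nor did LARP1, with 0% and 1.35% in EpiLong and 0% and 0% in LentiLong (0.57, adjusted p = 0.693). These shares are of all long starts. Of long reads at ENSG00000287697, only 5.98% to 7.6% started on bases that the short tables hold. Among these reads the shares were 35.8% and 36.25% in EpiLong and 41.4% and 39.4% in LentiLong. At LARP1 6.34% and 8.97% of EpiLong reads and 0% of LentiLong reads started on such bases.

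Output was measured as RNA per DNA, the log2 ratio of an insert's share of a library's RNA reads to its share of the DNA reads of the same replicate number, with 0.5 reads added. Each of the 72 members had at least 20 DNA reads in every short library. Focused sites ran from −6.24 to 2.26 in EpiShort (mean of the replicates), within a range of −7.70 to 3.81 over all random sites, and from −5.97 to 3.15 in LentiShort, within −6.49 to 3.32. Their median was −0.95 in EpiShort, against −1.70 over all 250 random sites, and −0.36 in LentiShort, against −0.73. In EpiShort 47 members and in LentiShort 46 lay above the median of all random sites. In the long libraries the medians were −0.95 against −1.21 (EpiLong) and −0.72 against −1.06 (LentiLong), with 40 members above in each and 2 members under 20 DNA reads in a long library.

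The highest members in EpiShort were the start opposite UTP25, a ribosome biogenesis gene, with 2.26 and 2.28 in the replicates, and ZNF646, a zinc finger gene, with 2.19 and 2.30. The start opposite PYGB, a glycogen phosphorylase, had 2.06 and 1.80, and the LONP1 site 1.22 and 1.65. Among the random sites these ranked 5, 6, 9 and 12 of 250. In LentiShort the highest were the LONP1 site with 3.20 and 3.09, PTMA with 2.67 and 2.61, ELF1 with 2.45 and 2.55, and the start opposite CASP10, an apoptosis protease, with 2.50 and 2.11, at ranks 3, 7, 9 and 10. Only the LONP1 site was among the 4 highest of both vectors.

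The lowest members in EpiShort were the LINC00649 site with −6.27 and −6.20, LARP1 with −6.30 and −5.99, chr10:5466631 with −5.40 and −5.19, and MIR223HG, the host gene of a myeloid microRNA, with −4.65 and −4.82. In LentiShort they were LARP1 with −6.10 and −5.84, ZSCAN29, a zinc finger gene, with −4.54 and −4.19, chr10:5466631 with −3.74 and −3.87, and the OOSP3 site with −3.26 and −3.44. LARP1 had only 153 and 163 RNA reads in EpiShort against 8595 and 929 DNA reads. At the 4 lowest in EpiShort the main base held only 9.7%, 15.9%, 23.5% and 28.5% of the episomal starts, in the order named, so their share of 30% or more in the average came through the lentiviral vector. At the 4 lowest in LentiShort it held 48.8%, 43.4%, 47.6% and 32.4% of the lentiviral starts.

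In the edgeR quasi-likelihood test of RNA against DNA (TMM scaling, Benjamini-Hochberg adjustment over 499 inserts), 37 members were above and 29 below the scaled level of the pool in the episomal vector, where 43.5% and 51.1% of all inserts were. In the lentiviral vector 33 were above and 25 below, where 44.1% and 47.5% of all inserts were. These splits depend on what is taken as the level of the pool. With library totals in place of TMM, which moves the median of all inserts from −0.30 to −1.65 in the episomal and from −0.06 to −0.63 in the lentiviral vector, they become 18 and 47, and 24 and 42. Over all 499 inserts the counts with library totals were 117 and 353, and 163 and 296.

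Before any correction for DNA, RNA counts of 38 members were higher in LentiShort than in EpiShort and those of 26 lower (edgeR quasi-likelihood, Benjamini-Hochberg). Of all 499 inserts, 45.1% were higher and 43.9% lower. The median difference of members was 0.42 on the log2 scale, against 0.04 over all inserts. With library totals the split was 47 and 18, against 314 and 134 over all inserts, whose median moved to 0.72.

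After correction for DNA, as the interaction of molecule and vector, 30 members were higher and 31 lower in the lentiviral vector, against 37.9% and 43.1% of all 499 inserts. The median difference was 0.06 among members and −0.04 over all inserts, and the members ran from −4.31 to 3.48. With library totals the split was 45 higher and 13 lower, against 303 and 116 over all inserts, whose median was 0.73. Focused sites as a group thus showed no common direction under TMM, while single members differed between the vectors by large amounts. Replicates did not overlap between the vectors at 47 of the 61 members called, which was not counted for the other inserts. Differences from the fit are given relative to TMM scaling and so are offset from the differences of the levels beside them.

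The largest differences toward the lentiviral vector were at members without an annotated start. The site in an intron of ENSG00000254859 (chr8:143545792) had an RNA per DNA of −4.59 and −4.70 in EpiShort and 0.04 and −0.75 in LentiShort (log2 difference 3.48, SE 0.22, adjusted p = 9.42e-52). The LINC00649 site had −6.27 and −6.20 in EpiShort and −1.82 and −2.36 in LentiShort (3.36, SE 0.17, adjusted p = 7.27e-81). The next were the STXBP5-AS1 site (log2 difference 3.01), the ADD3 site (2.83) and chr6:35439439 (2.17). All 5 rose from below 0 in both episomal replicates to levels between −2.36 and 2.15.

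The largest differences toward the episomal vector were at annotated promoters. ZSCAN29 had −0.84 and −0.82 in EpiShort and −4.54 and −4.19 in LentiShort (log2 difference −4.31, SE 0.14, adjusted p = 4.11e-177). PSMG4 had 0.66 and 0.66 in EpiShort and −1.81 and −1.64 in LentiShort (−3.17, SE 0.14, adjusted p = 1.09e-102). ENSG00000287697, POLR2H and CDC26 followed with log2 differences of −3.08, −1.85 and −1.80. At ZSCAN29 this is 60186 and 50020 RNA reads in EpiShort against 2872 and 3669 in LentiShort, with 51648 and 56917 DNA reads in the latter.

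By annotation, 13 of the 34 same-strand members were higher in the lentiviral vector and 16 lower, against 5 and 9 of the 15 opposite a gene and 12 and 6 of the 23 with no annotated start. Among the other random sites the counts were 20 higher and 36 lower of 67, 15 and 17 of 38, and 36 and 19 of 73. Median differences of the members were −0.19, −0.38 and 0.37 in that order of classes, and those of the other sites −0.47, −0.11 and 0.38. The class with no annotated start had the highest median in both, while the other classes changed places, and no difference between classes was tested.

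In the long libraries, RNA per DNA was higher in LentiLong at 25 and lower at 35 of 71 members tested, against 39.9% and 45.2% of 248 sites. The median difference was −0.26 among members and −0.20 over all sites. With library totals the split was 28 higher and 33 lower among members. Over all sites it was 109 and 101 in place of 99 and 112, so the direction over all sites turned. The medians were then 0.00 and 0.06. At each of the 60 members called the replicates of the vectors lay apart, which was not counted for the other sites. Members without an annotated start again led toward the lentiviral vector. The ADD3 site had −1.75 and −1.39 in EpiLong and 3.24 and 2.86 in LentiLong (log2 difference 4.32, SE 0.31, adjusted p = 1.42e-06). The STXBP5-AS1 site followed with −2.52 and −2.33 against 1.92 and 2.19 (4.22, SE 0.15, adjusted p = 1.06e-07), then the ENSG00000254859 site (3.70), the LONP1 site (3.03) and chr1:167715636 (2.27). The short and long comparisons share no sample, and 3 of the 5 sites lead in both.

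Toward the episomal vector, PSMG4 had −0.74 and −0.33 in EpiLong and −5.72 and −5.37 in LentiLong (log2 difference −5.30, SE 0.27, adjusted p = 2.44e-07). SCRIB, a cell polarity gene, had a log2 difference of −5.54, the start opposite LNC-LBCS −4.21 and GORASP1, a Golgi stacking protein, −4.00. CERS2, a ceramide synthase, had 50 and 13 RNA reads in EpiLong and 0 and 0 in LentiLong, where it had 403 and 289 DNA reads. Set against a floor of 3 RNA reads per library, its level was at least 11.6-fold lower in LentiLong. The EpiLong levels of −3.08 and −6.02 lay far apart, and the limit was 32.2-fold from replicate 1 alone and 4.21-fold from replicate 2 alone. Without EpiLong RNA replicate 1 the counts were too low to be tested, and the call was lost without LentiLong DNA replicate 1 (adjusted p = 0.0525). By annotation, 6 of 34 same-strand members were higher in the lentiviral vector and 22 lower, against 14 and 6 of the 23 with no annotated start. Among the other random sites these counts were 19 and 41 of 66, and 46 and 13 of 73.

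With 350 bases in place of 200, the main start stayed on the same genomic base at 49 of the 68 members with 50 reads in each long RNA library, and within 5 bp at 50. ZNF646 was the exception between these counts, with its highest base 3 bp upstream. Among dispersed faithful sites the main start stayed within 5 bp at 30 of 63, and among displaced ones at 55 of 106, differences that were not tested. At the other 18 members the highest base of the long profile lay 32 to 102 bases downstream, and at 17 of these beyond the last base that the short tables hold. Their short profile could not have shown it.

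PTMA kept 72.7% and 74.1% of starts on its main base in EpiLong and 78.5% and 76.8% in LentiLong. PIGU kept 44.9% and 49.9%, and 49.9% and 50.9%, well below its short values. ENSG00000286835 had 45.1% and 44.8% in EpiLong and 64.76% and 64.6% in LentiLong, the latter as in the short inserts. ATP6AP1 held 52.0% and 48.9%, and 55.4% and 54.25%. The LONP1 site held 51.7% and 55.7%, and 48.4% and 47.7%, and NR6A1 32.2% and 41.7%, and 35.85% and 29.55%. ANKRD31 had only 29 reads in EpiLong replicate 1, with 66.4% and 66.8% in LentiLong on 4862 and 5295 reads. The start opposite LNC-LBCS went the other way, with 1.27% and 2.60% in EpiLong, 0% of 2673 and 2579 reads in LentiLong, and its highest base 101 bases downstream.

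The 18 members whose main start moved were DMXL1, PRADC1, ERICH1, ENSG00000287697, ENSG00000270019, ZSCAN29, GORASP1, NRBP2, LARP1, MIR223HG, PSMG4 and SCRIB with a same-strand annotated start, the sites opposite LNC-LBCS and AFF1, and those at FAM156A, WDR62, OOSP3 and DISP2. Of the 50 members that kept it, 19 had a same-strand start, 12 an opposite one and 19 none. In the 4 long libraries the median share of reads inside the short tables' window was 81.7% to 88.7% for the members that kept the start and 6.5% to 21.3% for those that moved. The groups were formed by the place of the highest long base, beyond the window at 17 of the moved members. Part of this contrast therefore follows from how the groups were formed.

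To compare lengths over the same bases, long profiles were also limited to the window that the short tables hold. Within it 62 members had 50 reads in each long library, and the highest base was the same as in the short profile at 56 and within 5 bp at 57. The share on it had a median of 37.7%, against 42.5% for the same members in the short libraries, and was above the short value at 15. At MIR223HG, 2.95% to 5.14% of long reads fell in the window, where 47.8% of them lay on the short main base. At 5 members the start lay elsewhere even within the window: opposite LNC-LBCS and at DMXL1, ERICH1, GORASP1 and DISP2. Of the 18 members whose main start moved, 7 kept their short main base as the highest in the window, these 5 did not, and 6 had too few reads there.

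RNA per DNA changed with length in both directions. In the episomal vector 29 members were higher in the long insert and 28 lower (edgeR quasi-likelihood interaction of molecule and length, Benjamini-Hochberg), against 45.2% and 30.0% of 250 random sites. The median difference was 0.03 among members and 0.25 over all. With RLE size factors in place of TMM the episomal split was 26 higher and 37 lower, with medians of −0.44 among members and −0.23 over all sites, where 92 were higher and 114 lower in place of 113 and 75. The episomal direction over all sites thus turned with the scaling. In the lentiviral vector 23 were higher and 38 lower, against 38.4% and 45.6%, with medians of −0.48 and −0.22. RLE moved these medians to −0.13 and 0.13 and the split of members to 26 higher and 33 lower. Over all sites RLE gave 110 higher and 94 lower in place of 96 and 114, so the lentiviral direction turned too. When long RNA was limited to the common window the lentiviral split became 33 higher and 31 lower and the episomal one 28 and 25. Over all sites these splits became 108 and 104, and 96 and 88. Medians in the window were 0.12 among members and 0.09 over all sites in the lentiviral vector, and 0.10 and 0.03 in the episomal one. Short and long inserts were separate libraries with different barcodes, so length and library cannot be told apart.

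MIR223HG gained most with length in both vectors. Its RNA per DNA was −4.65 and −4.82 in EpiShort and 1.13 and 0.99 in EpiLong (log2 difference 5.59, SE 0.18, adjusted p = 1.15e-10), and −2.74 and −2.83 in LentiShort and 1.77 and 1.83 in LentiLong (4.48, SE 0.27, adjusted p = 8.77e-08). In the common window the differences fell to 1.29 and 0.98. ENSG00000286835 rose by 4.42 in the episomal vector, from −4.21 and −4.13 to 0.45 and 0.45, and by 4.79 in the common window. ZBTB8OS, a gene of the tRNA ligase complex, rose by 3.14 and the FAM156A site by 3.06. C17orf58 had no DNA read in either EpiLong library, so its fitted value, the highest of the comparison, has no level behind it.

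In the lentiviral vector ENSG00000287697 rose from −1.70 and −1.77 to 2.82 and 2.84 (log2 difference 4.46, SE 0.10, adjusted p = 1.32e-10), and by 1.26 in the common window. The KCTD10 site rose by 2.85, the LONP1 site by 2.75 and chr10:5466631 by 2.65, all with larger differences in the common window (3.59, 3.41 and 3.42). The LONP1 site reached 6.05 and 5.95 in LentiLong, on 537216 and 655368 RNA reads from 3435 and 4357 DNA reads. It thus had a high output in each vector and at each length.

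The largest losses were at annotated promoters and at 1 site opposite a gene. GORASP1 fell from 0.60 and 0.70 in EpiShort to −2.92 and −2.54 in EpiLong (log2 difference −3.58, SE 0.19, adjusted p = 6.26e-09), and from 0.29 and 0.36 in LentiShort to −6.42 and −6.50 in LentiLong (−6.89, SE 0.15, adjusted p = 8.83e-11). The start opposite AFF1, a subunit of the super elongation complex, fell by 4.19 in the episomal and by 6.53 in the lentiviral vector. ZSCAN29 fell by 4.08 in the episomal vector, and NRBP2, a pseudokinase, by 6.97 in the lentiviral one, where PRADC1 had a log2 difference of −5.57. CERS2 fell in both. In the episomal vector it went from 0.01 and 0.04 to −3.08 and −6.02, a fall by 4.58 that was 6.04 without EpiLong RNA replicate 1 and 4.12 without replicate 2. In the lentiviral vector it fell, with 0 RNA reads in LentiLong, to a level at least 655-fold below LentiShort. SNRK, a protein kinase, fell by 3.68 in the episomal vector, on 6 and 4 RNA reads and 12 and 27 DNA reads in EpiLong.

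The vectors were then compared in their length effect, as the interaction of molecule, vector and length over 16 samples. The effect was higher in the lentiviral vector at 17 members and lower at 32, with 23 not past the threshold, against 32.0% and 36.0% of 250 random sites. The median difference was −0.31 among members and −0.05 over all. This split turned with the scaling: RLE gave 31 members higher and 23 lower (medians 0.22 and 0.47 over all), DESeq2 31 and 24, and library totals 11 and 41 (medians −0.80 and −0.49). Over all sites RLE gave 123 higher and 64 lower, DESeq2 125 and 67, and library totals 48 and 125. Of the members, 18 were called higher with length in both vectors, 26 lower in both and 7 in opposite directions, of which 5 were still called so with RLE. These joint calls were counted among members alone. By annotation, 5 same-strand members had a higher and 19 a lower lentiviral effect, against 10 and 6 of those with no annotated start. Among the other random sites these counts were 21 and 29 of 67, and 35 and 13 of 73.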

How the data were processed

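Per the labels, capped RNA and insert DNA of K562 libraries were sequenced in 16 samples. Per the submitters' processing notes the authors used STAR 2.7.9a and hg38. The steps from reads to tables are not given in the sources used here. For each barcode the authors deposited, per the file headers, whole counts of RNA and DNA reads and, for each position, the fraction of RNA reads that start there, which was multiplied by the RNA count and rounded. Of the nonzero products, 93.725% to 99.966% per library lay within 0.05 of a whole number. Whether molecular identifiers were used is therefore not known here. No normalization was found in the counts.

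The tables stack blocks of rows with no sample column, and blocks were taken in the order of the names each table carries. The 8 blocks named as csRNA belong to no sample of the series and were not used here. The middle of the named region was taken as the annotated site, since 59.9% of short and 62.3% of long starts then had a pyrimidine before a purine, against 25.7% and 27.4% at the next best offset within 20 bp.

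Counts were summed over barcodes. RNA, and RNA per DNA as an interaction, were tested with edgeR 4.0.16 (TMM, quasi-likelihood, mean of at least 10 counts) and shares with limma 3.58.1 (at least 50 reads, 0.5 reads added) in R 4.3.3, fitted on all inserts or random sites, with Benjamini-Hochberg adjusted p under 0.05. DESeq2 1.42.0, other scalings, filters, a replicate block and leaving out each sample were alternatives. The fits were tested on simulated data. Replicates of a group differed by more than sampling noise (chi-square per degree of freedom 15.6 to 1620).

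The members and lists were chosen with earlier results of these data known. Values in every sample were given for the 8 highest average shares, for the 4 highest and lowest levels per vector, and for up to 5 differences each way per comparison among members past the threshold whose replicates did not overlap. The common window, the crossed block and the test of length by vector with its scalings were added after seeing the data.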

Additional observations from a re-analysis of the deposited data

Results flagged for a closer look

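At 7 members the effect of insert length on RNA per DNA was past the threshold in opposite directions in the vectors, and the difference itself passed the test of molecule, vector and length (edgeR quasi-likelihood, Benjamini-Hochberg). That test scales all 16 samples together, so each difference given here lies 0.52 or 0.53 above the lentiviral value minus the episomal value beside it. SCRIB was higher in the long insert in the episomal vector (log2 difference 2.00) and lower in the lentiviral one (−3.51), a difference of −4.98 (adjusted p = 7.61e-07). Limited to the common window of starts its episomal value turned to −2.08. ATP6AP1 had 2.38 and −1.54, a difference of −3.40 (adjusted p = 1.43e-08), and NR6A1 2.21 and −1.45, a difference of −3.12 (adjusted p = 2.40e-07). The LINC00649 site had 2.53 and −0.73, a difference of −2.74 (adjusted p = 7.03e-07), with a lentiviral value of 0.02 in the common window. ENSG00000270019 had 1.20 and −0.97, a difference of −1.64 (adjusted p = 1.90e-07). MRFAP1L1 had 0.86 and −0.44, a difference of −0.78 (adjusted p = 0.00262), with a lentiviral value of 0.37 in the common window. With RLE size factors its lentiviral value was −0.10 and its difference −0.25, neither past the threshold (adjusted p = 0.387 and 0.17), and the lentiviral value of the LINC00649 site, −0.39, also missed it (adjusted p = 0.0909). LIAS, the lipoic acid synthase gene, ran the other way with −1.08 and 1.39, a difference of 2.98 (adjusted p = 2.05e-07). The other 4 kept both signs in the window. How often the other random sites were called in opposite directions was not counted.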

How the results depend on the processing

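The number of members was 113 with a share of 20%, 39 with 40%, and 63 to 73 when any 1 short RNA library was left out. The profile of the episomal vector alone gave 53 and that of the lentiviral vector 87, of which 53 and 68 were among the 72. Members called in the long-library share comparison fell from 38 to 21 with the replicate number as a block, and to 1 to 25 when any 1 library was left out. Over all sites the block gave 54 higher and 17 lower in place of 97 and 30, and leaving out any 1 library lowered the calls there too. The cause was not tested. The labels do not say that replicate numbers pair the samples, and correlations of same-numbered deviations ran from −0.114 to 0.124. The block moved no other count of called members by over 1.5 times. With crossed episomal DNA numbers it called 60 members in the long vector comparison and 58 in the episomal length comparison. Leaving out 1 library gave 63 to 66 called members for RNA between vectors, 57 to 62 for RNA per DNA between vectors, 63 to 69 and 57 to 62 for RNA against DNA in the episomal and lentiviral vector, 56 to 65 for the long vector comparison, 54 to 65 and 59 to 63 for length, and 37 to 44 for the short share. Of 607 values of named differences under alternatives, 606 kept their direction and call, 1 lost the call (CERS2) and 0 reversed. The splits by direction turned with RLE for the length effect over all sites in each vector. They also turned for RNA against DNA in the lentiviral vector over all inserts, from 220 higher and 237 lower to 245 and 223. The length effect between vectors turned as well, and its scalings were added after seeing the data. With library totals the split of RNA per DNA between vectors turned over all inserts or sites, in short and in long libraries. EpiShort DNA replicate 2 was the shallowest library, and few reads limit C17orf58, SNRK, CERS2 and LARP1.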
